A study of Mus musculus with 6 samples.

Results

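This account covers the cytochrome P450 genes of families 1, 2 and 3 in the small intestinal epithelium of adult mice. Members were the protein-coding genes of the deposited count table named Cyp1, Cyp2 or Cyp3 followed by a subfamily letter and a number, with at least 1 count over all libraries. The annotation held 58 such genes, and 49 of them, from 16 of 16 subfamilies, had a count. The other 9 had none: Cyp1a2, Cyp2a22, Cyp2b9, Cyp2b13, Cyp2c37, Cyp2c50, Cyp2c54, Cyp2c69 and Cyp2j7. The table held 55450 gene identifiers in all.

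RNA with poly(A) tails was sequenced from 6 mice, 1 library each, and counted per gene, with 3 controls (animals 482, 483 and 486) and 3 knockouts (animals 423, 476 and 477). Every mouse carried loxP-flanked (floxed) alleles of Ncor1 and of a second corepressor gene. Only the knockouts also carried Vil1-Cre-ERT2, a Cre recombinase that tamoxifen activates and that the villin promoter directs to the intestinal epithelium, so effects of the deletion and of Cre alone cannot be told apart. Per the labels, mice of both groups received tamoxifen into the peritoneum at 8 to 9 weeks of age, at 15 mg per 100 g body weight for 5 days, and entered metabolic cages at day 21. The epithelium was freed from the tissue beneath it by scraping, and the section of small intestine behind each library is not stated. Values below are listed in the order of animals 482, 483 and 486 for controls and 423, 476 and 477 for knockouts.

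Enzymes of these families are membrane-bound monooxygenases of the endoplasmic reticulum that hold a heme group and take their electrons from the reductase POR. In enterocytes they meet drugs, plant compounds and steroids before these reach the liver, and the Cyp2c and Cyp2j enzymes also oxidise polyunsaturated fatty acids. The aryl hydrocarbon receptor (gene Ahr) is the classical activator of Cyp1 genes, CAR (Nr1i3) of Cyp2b genes, and PXR (Nr1i2) and the vitamin D receptor (Vdr) of Cyp3a genes. NCoR1 (gene Ncor1) is a corepressor that nuclear receptors bind and that brings histone deacetylase activity to their target genes.

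Total counts ran from 23476031 to 46835165 per library. Ncor1 (ENSMUSG00000018501, chromosome 11, 62316426 to 62458541 of mm10) stood at 140.4, 137 and 99.3 CPM in the controls and 31.3, 36.4 and 22.5 CPM in the knockouts (log2 fold change -2.06, SE 0.25, adjusted p = 0.000447), so it was lower in every knockout library. The epithelial markers Vil1, Epcam and Cdh17 were present in every library, at 891 CPM or more, but Vil1, whose promoter drives the Cre, fell (2786, 2925 and 2344 CPM in the controls and 891, 1547 and 1072 CPM in the knockouts; log2 fold change -1.20, SE 0.28, adjusted p = 0.0105). Epcam was also lower in every knockout (1947 against 1268 CPM) without passing (adjusted p = 0.0705). CPM are a gene's counts scaled to library size with TMM, not to gene length, and every test is edgeR's quasi-likelihood test with Benjamini-Hochberg adjustment over 15028 genes and a threshold of 0.05. In scraped tissue, fewer cells of a type and less RNA per cell cannot be told apart.

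Across the family, more members were higher in the knockouts than lower. Of the 49 members, 29 passed the filter on low counts and were tested: 16 rose, 5 fell and 8 did not pass. Over all 15028 genes tested, 35.6% passed, and 17.3% rose and 18.3% fell. The 16 that rose did so by more than 2-fold, and so did 4 of the 5 that fell. The median log2 fold change was 1.58 over the 29 tested members and -0.06 over all genes tested. The CPM of the groups did not overlap for 23 tested members, 17 of them higher and 6 lower in the knockouts; over all genes 23.9% were apart upward and 26.4% downward. A member could pass the filter through its high group alone. The filter's 0.318 CPM divides by total counts, without TMM. Of the 16 that rose, 6 reached it in every knockout library and not in every control library. These were Cyp2a5, Cyp2d9, Cyp2d10, Cyp2j5, Cyp3a16 and Cyp3a57. Cyp2c38, which fell, and Cyp1a1, whose change did not pass, reached it in every control library and not in every knockout library. Scaling by library size alone shifted the median of all genes from -0.06 to -0.49 and that of the members from 1.58 to 1.13. With that scaling, 14 members rose and 8 fell, against 1133 and 4554 of all 15028 genes. The median of the members was 0.34 with no filter (49 members) and 1.01 with a mean of at least 1 CPM (21 members). The count that fell was 3 without control 483 and also 3 without knockout 476, against 1990 of all 15687 genes and 2350 of all 15426.

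Members took 0.748%, 0.878% and 0.779% of all counts in the controls and 2.38%, 3.09% and 3.87% in the knockouts. Cyp3a11 alone took 0.229%, 0.291% and 0.256% in the controls and 1.16%, 1.69% and 2.25% in the knockouts. These shares divide by the total counts of each library, without TMM, and every knockout share lay above every control share. Knockout 477 was the highest library for 14 of the 16 risen members by CPM and for 11 by share of counts.

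**Figure D1:**
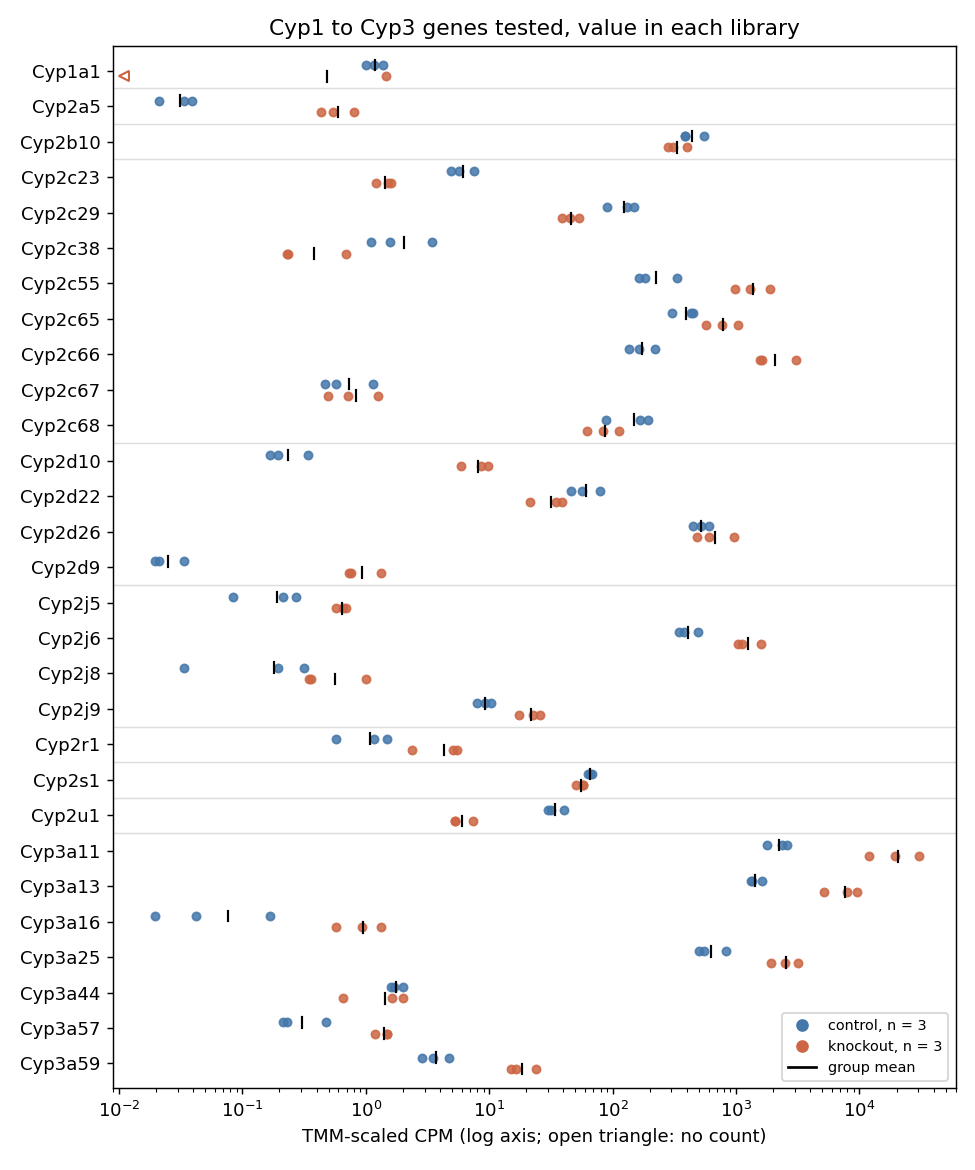
TMM-scaled CPM of the 29 tested members in each library (log axis), with controls in blue, knockouts in red, and a black tick at each group mean; the open triangle marks libraries with no count. The values span from about 0.02 CPM (Cyp2d9 in control 486) to 30320 CPM (Cyp3a11 in knockout 477), and Cyp3a11, Cyp3a13 and Cyp2c66 show wide gaps between the groups.

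The Cyp3a subfamily, whose enzymes oxidise bile acids, steroids and a large share of oral drugs, held the highest levels and rose in nearly every member. All 7 Cyp3a members with a count were tested; 6 rose and Cyp3a44 did not pass. Their summed level was 4291 ± 711 CPM in the controls and 30670 ± 12060 CPM in the knockouts (SD, n = 3), a ratio of 7.15. Cyp3a11 (ENSMUSG00000056035, chromosome 5, 145854426 to 145879964), the main drug-oxidising P450 of this subfamily in mice, stood at 1787, 2579 and 2344 CPM in the controls and 11940, 19410 and 30320 CPM in the knockouts. Its groups were far apart and its level rose 9.19-fold (log2 fold change 3.20, SE 0.40, adjusted p = 0.000525). Cyp3a13 (ENSMUSG00000029727, chromosome 5, 137892932 to 137921619), which lies apart from the rest of the cluster, stood at 1311, 1618 and 1341 CPM in the controls and 5146, 7973 and 9585 CPM in the knockouts and rose 5.32-fold (log2 fold change 2.41, SE 0.31, adjusted p = 0.000621). Cyp3a25 (ENSMUSG00000029630, chromosome 5, 145977194 to 146009618) stood at 504, 822 and 549 CPM in the controls and 1914, 2472 and 3165 CPM in the knockouts and rose 4.03-fold (log2 fold change 2.01, SE 0.30, adjusted p = 0.00148). In each of these 3 genes knockout 423 was the lowest knockout and still lay above every control.

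The remaining Cyp3a members were present at low levels. Cyp3a59 stood at 2.85, 4.73 and 3.54 CPM in the controls and 14.9, 16.4 and 24.2 CPM in the knockouts (log2 fold change 2.32, SE 0.29, adjusted p = 0.000539). Cyp3a57 stood at 0.232, 0.473 and 0.215 CPM in the controls and 1.19, 1.5 and 1.5 CPM in the knockouts (log2 fold change 2.21, SE 0.47, adjusted p = 0.00708). Cyp3a16, a gene best known from fetal liver, stood at 0.0421, 0.169 and 0.0195 CPM in the controls and 0.579, 0.931 and 1.32 CPM in the knockouts (log2 fold change 3.73, SE 0.73, adjusted p = 0.00486); all 3 genes rose, with no overlap between groups. The log2 fold change of Cyp3a16 was 4.77 without control 483, the control with the highest level. Cyp3a44 stood at 1.6, 1.69 and 1.99 CPM in the controls and 0.651, 1.63 and 2.01 CPM in the knockouts, with overlapping groups (log2 fold change -0.31, SE 0.45, adjusted p = 0.606).

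Coding sequences in this cluster are alike enough for reads to be given to the wrong copy. Cyp3a25 and Cyp3a59 share 97.5% of coding bases, and the CPM of Cyp3a59 was between 0.564% and 0.779% that of Cyp3a25 in each library. Cyp3a16 shares 92.8% of coding bases with Cyp3a11 and was at most 0.00655% of its CPM. Cyp3a57 shares 93.9% of coding bases with Cyp3a25 and was between 0.0391% and 0.0624% of its CPM in each library. Whether reads of the abundant copy were counted under the rare one was not tested, so the levels of Cyp3a59, Cyp3a57 and Cyp3a16 are uncertain. With Cyp3a25 and Cyp3a59 counted as one unit, the log2 fold change was 2.01 (adjusted p = 0.00148). Cyp3a44 is 94.9% identical to Cyp3a11, yet its CPM went from between 0.0655% and 0.0897% of that of Cyp3a11 in controls to between 0.00545% and 0.00839% in knockouts. No exact 50-base stretch of the longest coding transcript of Cyp3a13 occurs in another gene, and it shares 76.5% of coding bases with Cyp3a11. Shorter or inexact matches were not searched, and whether its reads were given to another copy was not tested.

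The make-up of the Cyp3a pool also differed between the groups. Per kilobase of exon, Cyp3a13 and Cyp3a11 stood close together in the controls, at 481 ± 57.3 and 439 ± 79.9 CPM per kb (SD, n = 3), with Cyp3a25 at 300.1. Cyp3a13 was the higher in controls 482 and 483 and Cyp3a11 in control 486. This order and the shares below rest on the exon lengths used, 5093 bases for Cyp3a11 and 2956 for Cyp3a13. Their coding sequences have 1512 and 1509 bases, and in CPM Cyp3a11 was the higher in every control. In each knockout Cyp3a11 was the highest, with a group mean of 4037 CPM per kb against 2560 for Cyp3a13 and 1208 for Cyp3a25. Within a library, the CPM of Cyp3a11 over that of Cyp3a13 was 1.36, 1.59 and 1.75 in the controls and 2.32, 2.43 and 3.16 in the knockouts. The share of Cyp3a11 in the summed CPM per kb went from 35.9% ± 2.75 to 50.6% ± 4.46 (SD, n = 3). That of Cyp3a25 went from 24.3% ± 2.57 to 16% ± 2.14. The groups did not overlap in any of these shares. An exact permutation test of 3 libraries against 3 cannot give a two-sided p below 0.1, so the ratios and shares were given no test.

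**Figure D2:**
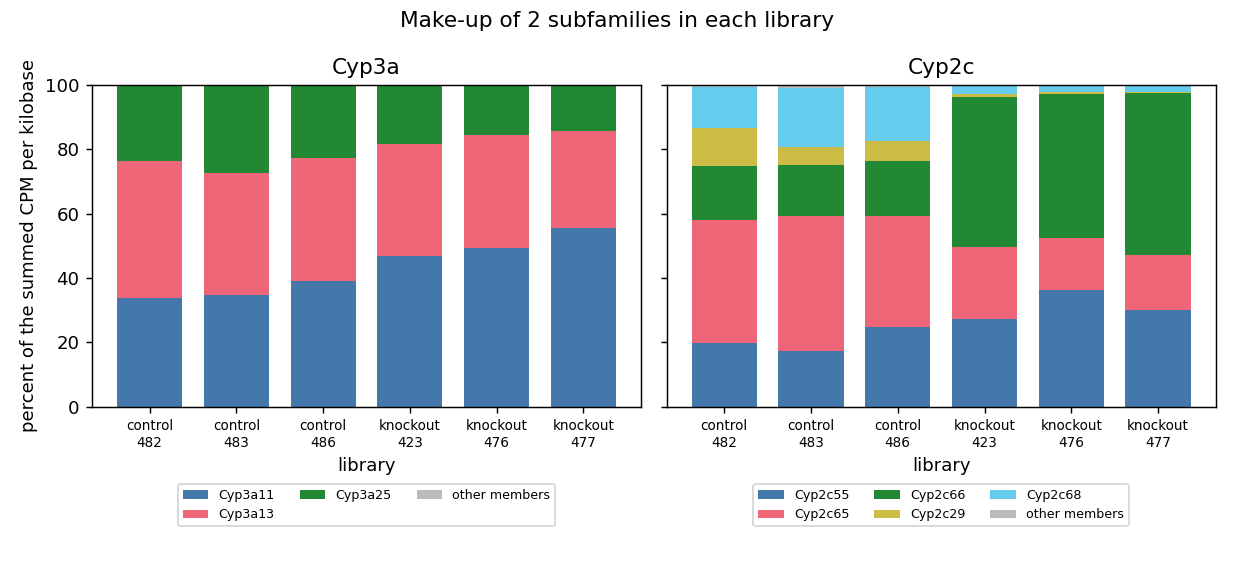
Make-up of the Cyp3a (left) and Cyp2c (right) pools in each library, as percent of the subfamily's summed CPM per kilobase of exon. The Cyp3a11 segment is larger in each knockout than in each control, and in Cyp2c the Cyp2c66 segment goes from a control mean of 16.5% to a knockout mean of 47.1%.

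Promoter sequence was set beside these values for the 3 abundant Cyp3a genes, for Cyp3a59 as the near-copy of Cyp3a25, and for 3 Cyp2c neighbours that moved unequally. The RefSeq windows on GRCm38.p6 hold the 250 bases before the start, printed 5′ to 3′ on the strand of the gene. Capitals mark the nuclear receptor half-sites AGGTCA and AGTTCA, searched on both strands (their reverse complements read TGACCT and TGAACT).
Cyp3a11: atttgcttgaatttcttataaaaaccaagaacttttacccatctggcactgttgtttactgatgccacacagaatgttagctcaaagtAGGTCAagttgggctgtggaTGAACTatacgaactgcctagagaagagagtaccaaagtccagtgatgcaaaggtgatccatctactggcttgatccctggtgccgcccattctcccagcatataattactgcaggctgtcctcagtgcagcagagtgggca
Cyp3a13: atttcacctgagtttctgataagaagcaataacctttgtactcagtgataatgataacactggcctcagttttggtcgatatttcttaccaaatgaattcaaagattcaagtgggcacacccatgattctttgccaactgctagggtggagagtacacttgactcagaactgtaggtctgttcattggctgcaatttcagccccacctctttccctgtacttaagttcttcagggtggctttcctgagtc
Cyp3a25: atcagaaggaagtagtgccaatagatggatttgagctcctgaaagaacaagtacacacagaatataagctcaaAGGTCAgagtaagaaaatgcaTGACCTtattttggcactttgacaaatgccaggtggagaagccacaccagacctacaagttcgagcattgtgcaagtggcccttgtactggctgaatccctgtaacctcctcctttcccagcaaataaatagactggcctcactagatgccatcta
Cyp3a59: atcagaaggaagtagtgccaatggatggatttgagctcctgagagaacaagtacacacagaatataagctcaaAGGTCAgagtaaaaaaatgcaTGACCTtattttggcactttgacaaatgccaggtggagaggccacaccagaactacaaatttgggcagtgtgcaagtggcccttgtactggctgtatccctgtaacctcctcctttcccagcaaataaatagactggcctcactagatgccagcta
Cyp2c29: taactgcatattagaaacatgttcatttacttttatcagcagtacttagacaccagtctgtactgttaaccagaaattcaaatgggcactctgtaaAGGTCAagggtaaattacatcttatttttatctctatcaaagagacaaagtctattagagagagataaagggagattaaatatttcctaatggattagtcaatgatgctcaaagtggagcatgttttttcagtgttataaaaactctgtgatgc
Cyp2c65: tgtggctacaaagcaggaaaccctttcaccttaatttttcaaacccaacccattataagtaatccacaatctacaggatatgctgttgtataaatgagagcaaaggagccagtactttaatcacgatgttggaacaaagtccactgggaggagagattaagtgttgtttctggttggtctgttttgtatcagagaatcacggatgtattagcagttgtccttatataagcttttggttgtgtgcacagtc
Cyp2c66: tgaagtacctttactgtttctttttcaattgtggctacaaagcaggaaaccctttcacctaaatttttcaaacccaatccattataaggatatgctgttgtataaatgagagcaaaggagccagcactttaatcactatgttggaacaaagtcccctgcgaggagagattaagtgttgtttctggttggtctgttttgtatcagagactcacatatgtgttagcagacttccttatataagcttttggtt
The windows are chr5:145879855-145880104 on the minus strand for Cyp3a11, chr5:137921620-137921869 on the minus strand for Cyp3a13, chr5:146009618-146009867 on the minus strand for Cyp3a25 and chr5:146079008-146079257 on the plus strand for Cyp3a59. Those of the Cyp2c genes are chr19:39286835-39287084 on the plus strand for Cyp2c29, chr19:39060756-39061005 on the plus strand for Cyp2c65 and chr19:39113648-39113897 on the plus strand for Cyp2c66.

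Half-sites were found in 5 of the 7 Cyp3a promoters, and whether they bear on the response was not tested. Cyp3a25, Cyp3a57 and Cyp3a59 each held AGGTCA at 2 places, and their upstream copy is part of the longer CAAAGGTCA, present in 0.426% of all 32851 promoter windows of this length. The windows of Cyp3a25 and Cyp3a59 are 95.6% identical over aligned bases, and Cyp3a57 shares 93.9% of coding bases with Cyp3a25. Matches in such near-copies are not independent and cannot be read as enrichment. Cyp3a11 held 1 AGGTCA and 1 AGTTCA. Cyp3a44, which did not pass, held 1 AGGTCA, while Cyp3a13 and Cyp3a16, which rose, held neither motif in this window. Of the 26 tested members with a RefSeq promoter, 7 had either half-site: 5 of the 16 that rose, 1 of 2 that fell and 1 of 8 that did not pass. Over all promoters, 14.0% held AGGTCA, 11.8% AGTTCA and 24.2% either. The core of the dioxin response element, GCGTG, was in 1 of the 16 risen members (Cyp2j9), in neither of the 2 that fell, in 3 of the 8 that did not pass (Cyp1a1, Cyp2b10 and Cyp2c68) and in 28.2% of all promoters. TGACNNNGC, the core of the antioxidant response element, was in none of the 26 and in 10.2% of all. These are letter matches in short windows, and enhancers farther away were not searched.

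The Cyp2c subfamily, epoxygenases and hydroxylases of arachidonic acid and drugs, split into genes that rose and genes that fell. Of 11 members, 8 were tested: 3 rose, 3 fell and 2 did not pass. The summed level was 1074 ± 243 CPM in the controls and 4378 ± 1497 CPM in the knockouts (SD, n = 3), a ratio of 4.08, carried by the 3 that rose. Cyp2c66 (ENSMUSG00000067229, chromosome 19, 39113898 to 39187072) stood at 135, 164 and 219.7 CPM in the controls and 1623, 1558 and 3037 CPM in the knockouts and rose 12-fold (log2 fold change 3.58, SE 0.36, adjusted p = 0.000178). Cyp2c55 (ENSMUSG00000025002, chromosome 19, 39007019 to 39042693), which makes hydroxylated arachidonic acid, stood at 162, 184 and 331 CPM in the controls and 974, 1295 and 1872 CPM in the knockouts and rose 6.11-fold (log2 fold change 2.61, SE 0.36, adjusted p = 0.000994). For both genes the lowest knockout lay well above the highest control. Cyp2c65 (ENSMUSG00000067231, chromosome 19, 39061015 to 39093944) stood at 303, 432 and 445 CPM in the controls and 766, 567 and 1036 CPM in the knockouts and rose 2.01-fold (log2 fold change 1.01, SE 0.29, adjusted p = 0.023). That smaller change was lost without control 482 (adjusted p = 0.0753), control 483 (0.0521) or knockout 477 (0.0917), and with library size alone (0.0734), removal of the trend with length and GC content (0.0661) or a test against a 1.5-fold change (0.113).

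The Cyp2c genes that fell had lower levels. Cyp2c29 (ENSMUSG00000003053, chromosome 19, 39269405 to 39330713), a retinoid and drug oxidase best known from liver, stood at 149, 89.6 and 130.4 CPM in the controls and 53.7, 38.8 and 45.3 CPM in the knockouts and fell 2.67-fold (log2 fold change -1.42, SE 0.24, adjusted p = 0.00261). Cyp2c23, an arachidonate epoxygenase, stood at 4.91, 7.6 and 5.74 CPM in the controls and 1.59, 1.53 and 1.21 CPM in the knockouts and fell 4.18-fold (log2 fold change -2.06, SE 0.31, adjusted p = 0.00152). Every knockout lay below every control for both. Cyp2c38 stood at 1.58, 3.41 and 1.11 CPM in the controls and 0.688, 0.233 and 0.23 CPM in the knockouts (log2 fold change -2.36, SE 0.61, adjusted p = 0.0162). Its call was lost without control 483 (adjusted p = 0.0560), knockout 476 (0.0532) or knockout 477 (0.0547), and its log2 fold change was -3.08 without knockout 423. Cyp2c68 stood at 88.6, 168 and 194 CPM in the controls and 83.2, 62.5 and 113 CPM in the knockouts and did not pass (log2 fold change -0.80, SE 0.32, adjusted p = 0.0769), although it passed without control 482 (adjusted p = 0.0221), with library size alone (0.00881), with the length and GC trend removed (0.00638) and with no filter (0.00802). Cyp2c67 stood at 0.569, 1.15 and 0.469 CPM in the controls and 0.724, 0.499 and 1.26 CPM in the knockouts, with overlapping groups (log2 fold change 0.18, SE 0.53, adjusted p = 0.812). Cyp2c67 and Cyp2c68 share 97.2% of coding bases. Of the 50-base stretches of their longest coding transcripts, 52.8% and 43.3% occur in other genes, so the level of each is uncertain. Summed with their near-copy Cyp2c40 they did not pass (log2 fold change -0.80, adjusted p = 0.0788).

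Cyp2c65 and Cyp2c66 are neighbours with 96.3% identical coding bases, and they changed unequally. The CPM of Cyp2c66 over that of Cyp2c65 was 0.446, 0.381 and 0.493 in the controls and 2.12, 2.75 and 2.93 in the knockouts, so Cyp2c65 had the higher count in each control and Cyp2c66 in each knockout. Within the Cyp2c pool per kilobase, Cyp2c66 went from 16.5% ± 0.578 to 47.1% ± 2.74 and Cyp2c65 from 38.3% ± 3.75 to 18.6% ± 3.16 (SD, n = 3). Of the 50-base stretches in the longest coding transcript of Cyp2c66, 24% also occur in another gene, mainly Cyp2c65, so part of the reads cannot be assigned with certainty. Counted as one unit, both genes together had a log2 fold change of 2.34 (adjusted p = 0.00102). Their promoter windows, printed above, have 208 identical and 13 mismatched aligned bases (94.1% identity) and 58 gap positions, and neither holds a half-site. Cyp2c29 went from 7.9% ± 3.43 to 0.721% ± 0.254 of the Cyp2c pool, and the CPM of Cyp2c55 over that of Cyp2c29 was 1.09, 2.06 and 2.54 in the controls and 18.1, 33.4 and 41.3 in the knockouts. Cyp2c29 shares 142 exon bases on the same strand with the pseudogene Cyp2c53-ps.

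The Cyp2d subfamily had 1 abundant gene that did not pass and 2 rare genes that rose. Of 8 members, 4 were tested: 2 rose, 1 fell and 1 did not pass. Cyp2d26 (ENSMUSG00000022445), the abundant member, stood at 447, 604 and 521 CPM in the controls and 486, 599 and 955 CPM in the knockouts, with overlapping groups (log2 fold change 0.38, SE 0.29, adjusted p = 0.33), and its log2 fold change was -0.10 with library size alone. Cyp2d10 (ENSMUSG00000094806, chromosome 15, 82402846 to 82407195) stood at 0.169, 0.338 and 0.195 CPM in the controls and 5.9, 8.61 and 9.84 CPM in the knockouts and rose 35.3-fold (log2 fold change 5.14, SE 0.41, adjusted p = 5.3e-05). Cyp2d9, a steroid 16-alpha-hydroxylase known from male liver, stood at 0.0211, 0.0338 and 0.0195 CPM in the controls and 0.76, 0.731 and 1.32 CPM in the knockouts (log2 fold change 5.09, SE 0.63, adjusted p = 0.000539). The control values of Cyp2d9 are 1 count per library, and it shares 92.5% of coding bases with Cyp2d10, so its level is uncertain. Cyp2d9 also shares 186 exon bases on the same strand with Gm46501. Cyp2d10 shares 94.7% of coding bases with Cyp2d11. Of the 50-base stretches of its longest coding transcript, 40.5% occur in other genes, so the level of Cyp2d10 is uncertain too. On the variance-stabilised scale (limma-trend) the log2 difference of Cyp2d9 was 2.20, and that of Cyp2d10 3.93. The knockouts of both genes lay above every control. Cyp2d22 (ENSMUSG00000061740, chromosome 15, 82370527 to 82380260), often set beside human CYP2D6, stood at 56.2, 79.5 and 46.1 CPM in the controls and 21.6, 34.6 and 39.2 CPM in the knockouts and fell 1.91-fold (log2 fold change -0.93, SE 0.28, adjusted p = 0.0282). The call of Cyp2d22 was lost without control 483 (adjusted p = 0.105), knockout 423 (0.0980) or knockout 476 (0.0604), and in a test against a 1.5-fold change (0.148). The summed level was 585 ± 91.8 CPM in the controls and 722 ± 254 CPM in the knockouts (SD, n = 3), a difference smaller than the knockout SD, and it was lower in the knockouts with library size alone.

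In the Cyp2j subfamily, epoxygenases of arachidonic and linoleic acid, 4 of 7 members were tested; 3 rose and 1 did not pass. Cyp2j6 (ENSMUSG00000052914, chromosome 4, 96516138 to 96553661), an intestinal member, stood at 379, 346 and 495 CPM in the controls and 1045, 1120 and 1605 CPM in the knockouts and rose 3.09-fold (log2 fold change 1.63, SE 0.27, adjusted p = 0.00228). Cyp2j9 stood at 7.92, 9.19 and 10.4 CPM in the controls and 22.6, 17.6 and 25.8 CPM in the knockouts (log2 fold change 1.26, SE 0.23, adjusted p = 0.00323). Neither gene's groups overlapped, and Cyp2j6 made up 97.4% ± 0.32 to 97.9% ± 0.347 of the subfamily's CPM per kb. Cyp2j5, a gene best known from kidney and liver, stood at 0.0843, 0.27 and 0.215 CPM in the controls and 0.651, 0.698 and 0.575 CPM in the knockouts (log2 fold change 1.78, SE 0.53, adjusted p = 0.0282). Its call was lost with library size alone (adjusted p = 0.0689), against a 1.5-fold change (0.0710) and without control 482 (0.116), control 486 (0.0563), knockout 423 (0.0678), knockout 476 (0.0776) or knockout 477 (0.0640). Cyp2j8 stood at 0.316, 0.0338 and 0.195 CPM in the controls and 0.362, 0.997 and 0.345 CPM in the knockouts and did not pass (log2 fold change 1.58, SE 0.71, adjusted p = 0.106), and its log2 fold change was 0.90 without knockout 476.

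Cyp2b10 and Cyp1a1, the standard readouts of CAR and of the aryl hydrocarbon receptor, did not pass. Cyp2b10 (ENSMUSG00000030483, chromosome 7, 25897620 to 25926624) stood at 389, 546 and 389 CPM in the controls and 280.3, 311 and 401 CPM in the knockouts, with overlapping groups (log2 fold change -0.42, SE 0.25, adjusted p = 0.208). With library size alone it was lower in the knockouts (log2 fold change -0.88, adjusted p = 0.00883). The ratio of Cyp3a11 to Cyp2b10 CPM in the same library was 4.6, 4.73 and 6.03 in the controls and 42.6, 62.5 and 75.7 in the knockouts. Cyp1a1 (ENSMUSG00000032315, chromosome 9, 57687928 to 57703824) stood at 1.16, 1.39 and 0.996 CPM in the controls and 1.45, 0 and 0 CPM in the knockouts (log2 fold change -1.22, SE 1.11, adjusted p = 0.414). The value in knockout 423 rests on 40 counts, the highest CPM of the 6 libraries, and a count of 0 allows up to 0.0997 CPM in knockout 476 and 0.173 CPM in knockout 477. Without knockout 423 the gene passed (log2 fold change -8.37, adjusted p = 0.00314, a fitted value against a group with no count), as it did with limma-voom (adjusted p = 0.0312). The only other Cyp1 gene with counts, Cyp1b1, had 20 in the controls and 3, all in knockout 423, in the knockouts.

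The subfamilies with a single tested gene moved in both directions. Cyp2u1 (ENSMUSG00000027983, chromosome 3, 131288441 to 131303227), a long-chain fatty acid hydroxylase, stood at 40.1, 31.6 and 29.9 CPM in the controls and 7.38, 5.25 and 5.29 CPM in the knockouts and fell 5.66-fold (log2 fold change -2.50, SE 0.24, adjusted p = 0.000131). It shares 548 exon bases with the antisense gene 4930534D22Rik, and since the strand setting of the counting is not given in the sources used here, reads of both cannot be told apart. Antisense overlaps are also annotated for Cyp2c55 (64 exon bases), Cyp2s1 (260) and Cyp2f2 (274). Cyp2r1 (ENSMUSG00000030670, chromosome 7, 114549682 to 114562972), which adds the 25-hydroxyl group to vitamin D, stood at 0.569, 1.49 and 1.17 CPM in the controls and 2.35, 5.09 and 5.52 CPM in the knockouts and rose 4.03-fold (log2 fold change 2.01, SE 0.47, adjusted p = 0.0106). Cyp2a5, the coumarin hydroxylase, stood at 0.0211, 0.0338 and 0.0391 CPM in the controls and 0.543, 0.432 and 0.805 CPM in the knockouts (log2 fold change 4.07, SE 0.63, adjusted p = 0.00161). It rose with no overlap between groups, but it is 98.4% identical in coding bases to Cyp2a4, which had 1 count in all. Cyp2s1 stood at 63.4, 68.2 and 65.2 CPM in the controls and 57.6, 57.1 and 50.3 CPM in the knockouts; every knockout was lower than every control, but the change did not pass (log2 fold change -0.25, SE 0.18, adjusted p = 0.28), except with library size alone (adjusted p = 0.0311).

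**Figure D3:**
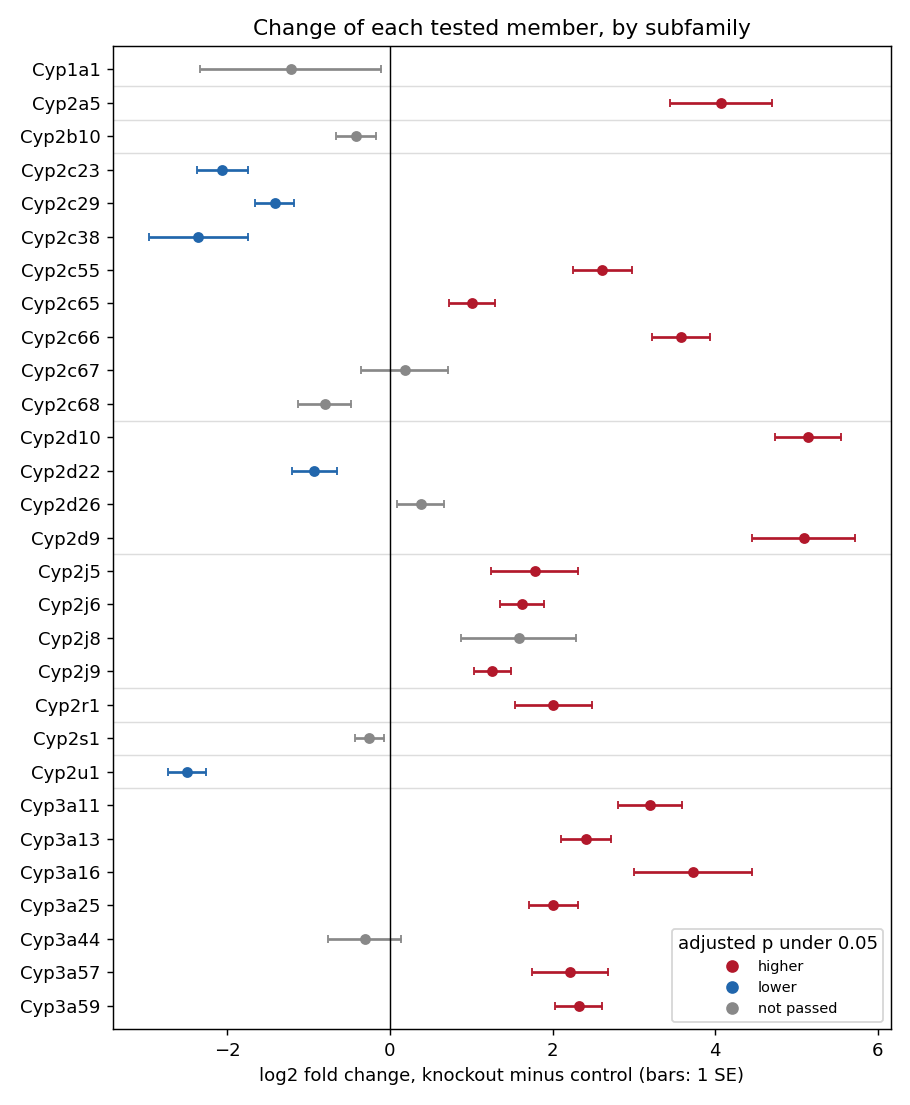
Log2 fold change of knockout over control for the 29 tested members, ordered by subfamily, with bars of 1 SE; red marks members that rose, blue those that fell and grey those that did not pass. The Cyp3a rows lie right of zero except Cyp3a44 (-0.31), while the Cyp2c rows run from -2.36 (Cyp2c38) to 3.58 (Cyp2c66).

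The 20 members that were not tested had at most 35 counts each over all libraries, and 10 of them had under 10. Cyp2e1, the ethanol-oxidising P450 of liver, had 35 counts in the controls and none in the knockouts, at least 6.83-fold lower in CPM against a floor of 3 counts over the group. Of those counts 18 came from control 483, and without it the bound is 4.31-fold. In the Cyp2d cluster, Cyp2d11 had 1 control and 21 knockout counts, Cyp2d34 had 7 and 22, Cyp2d12 had 17 and 9, and Cyp2d40 had 5 and 4. In Cyp2c, Cyp2c70, a bile acid hydroxylase of liver, had 9 and 16, Cyp2c40 had 3 and 1, and Cyp2c39 had 2 and 0. The Cyp2b genes Cyp2b19 and Cyp2b23 had 10 and 5, and 4 and 0. Cyp2a12 had 11 and 11, Cyp2a4 had 1 and 0, and Cyp2f2, a lung and liver enzyme, had 15 and 3. Among Cyp2j genes, Cyp2j11 had 11 and 2, Cyp2j12 had 1 and 0, and Cyp2j13 had 2 and 3. Cyp2g1 (0 and 1), Cyp2t4 (1 and 0) and Cyp2w1 (3 and 4) were close to undetected at this depth.

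Members that lie next to each other on a chromosome did not all move together. On chromosome 19, Cyp2c55, Cyp2c65 and Cyp2c66, the first 3 tested genes of the cluster, rose. The next ones in order, Cyp2c29 and Cyp2c38, fell, and Cyp2c67 and Cyp2c68 after them did not pass. On chromosome 15, Cyp2d22, which fell, and Cyp2d10, which rose, are adjacent among the tested members. The CPM of Cyp2d10 over that of Cyp2d22 was 0.003, 0.00425 and 0.00424 in the controls and 0.273, 0.249 and 0.251 in the knockouts, so the groups were far apart. On chromosome 5, Cyp3a44 lies between Cyp3a16 and Cyp3a11, and both of these neighbours rose. The 4 tested Cyp2j genes of chromosome 4 had log2 fold changes between 1.26 and 1.78.

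**Figure D4:**
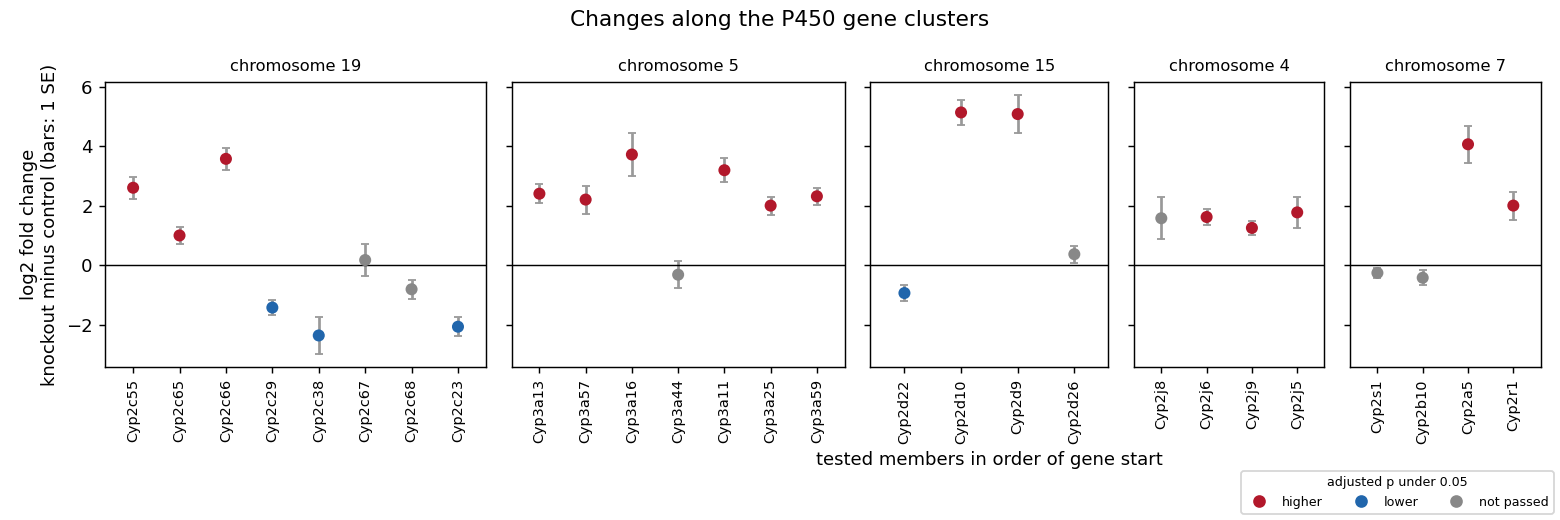
Log2 fold change (bars of 1 SE) of tested members in the order of their gene starts on 5 chromosomes; spacing along the axis is by rank, not distance. On chromosome 19 the first 3 genes lie above zero and the next 2 below, and on chromosome 5 Cyp3a44 is the one Cyp3a gene below zero.

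The receptors that act on these genes were described from a list of 22, of which 20 were tested. Of these, 3 rose, 6 fell and 11 did not pass, against 17.3% that rose and 18.3% that fell over all genes tested. Ahr stood at 17.3, 12.9 and 12.7 CPM in the controls and 3.51, 3.46 and 4.72 CPM in the knockouts and fell (log2 fold change -1.88, SE 0.25, adjusted p = 0.000844). Nr1i2, which encodes PXR, stood at 128, 128 and 120.3 CPM in the controls and 151, 212 and 165 CPM in the knockouts; every knockout was higher, but the change did not pass (log2 fold change 0.49, SE 0.21, adjusted p = 0.0908). Nr1i3, which encodes CAR, had a log2 fold change of -0.09 (adjusted p = 0.807) and Vdr one of -0.17 (adjusted p = 0.629), both with overlapping groups. Ppara, the fatty acid receptor, rose (log2 fold change 2.10), as did the bile acid receptor gene Nr1h4 (2.42). Hlf, a circadian PAR bZIP factor, fell from between 12.1 and 16.7 CPM in the controls to at most 0.362 CPM in the knockouts (log2 fold change -6.42, SE 0.52, adjusted p = 5.9e-05; log2 fold change -7.79 without knockout 423, which held 10 of the 13 knockout counts). The median over the 20 genes was -0.17, against -0.06 over all genes. Among 4 tested targets of the aryl hydrocarbon receptor, Nqo1, a quinone reductase that other factors also control, rose (log2 fold change 3.09) and the other 3 did not pass.

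Genes that serve the P450 cycle had members that rose and none that fell. Over all genes tested, 17.3% rose, 18.3% fell and 50.3% had groups that were apart in CPM. Of 6 electron partners, 3 rose and 3 did not pass, with a median log2 fold change of 0.96. Por, the reductase that supplies all microsomal P450s, stood at 404, 344 and 347 CPM in the controls and 749, 1114 and 1079 CPM in the knockouts (log2 fold change 1.43, SE 0.25, adjusted p = 0.00268). Pgrmc2, a heme-binding membrane protein, and Cyb5a, cytochrome b5, had log2 fold changes of 1.42 and 1.31, and the groups of all 6 partners were apart. Of 11 genes of heme synthesis and breakdown, 4 rose and 7 did not pass, with a median of 0.40. Alas1, the rate-limiting enzyme of heme synthesis outside red cells, stood at 130.3, 106 and 117 CPM in the controls and 376, 818 and 583 CPM in the knockouts (log2 fold change 2.33, SE 0.30, adjusted p = 0.00068). Hmox1, the inducible heme oxygenase, stood at 1.39, 0.574 and 1.62 CPM in the controls and 17.8, 26 and 45.8 CPM in the knockouts (log2 fold change 4.60, SE 0.46, adjusted p = 0.00018). Both had every knockout above every control, and Alad (1.31), the step of heme synthesis after Alas1, also rose. Urod, a later step, had a log2 fold change of 0.96 (adjusted p = 0.0245), and its call was lost with library size alone (0.119), against a 1.5-fold change (0.131) and without control 482 (0.0818), control 483 (0.0819) or knockout 477 (0.0890). Ephx1, the microsomal epoxide hydrolase, stood at 7.5, 12.7 and 7.17 CPM in the controls and 43.9, 46.3 and 63 CPM in the knockouts and rose (log2 fold change 2.49, SE 0.28, adjusted p = 0.000311), while Ephx2, which hydrolyses fatty acid epoxides, did not pass (-0.52). Of the P450s of vitamin D outside these families, Cyp27a1 fell (log2 fold change -2.03); Cyp24a1 and Cyp27b1 were not tested.

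**Figure D5:**
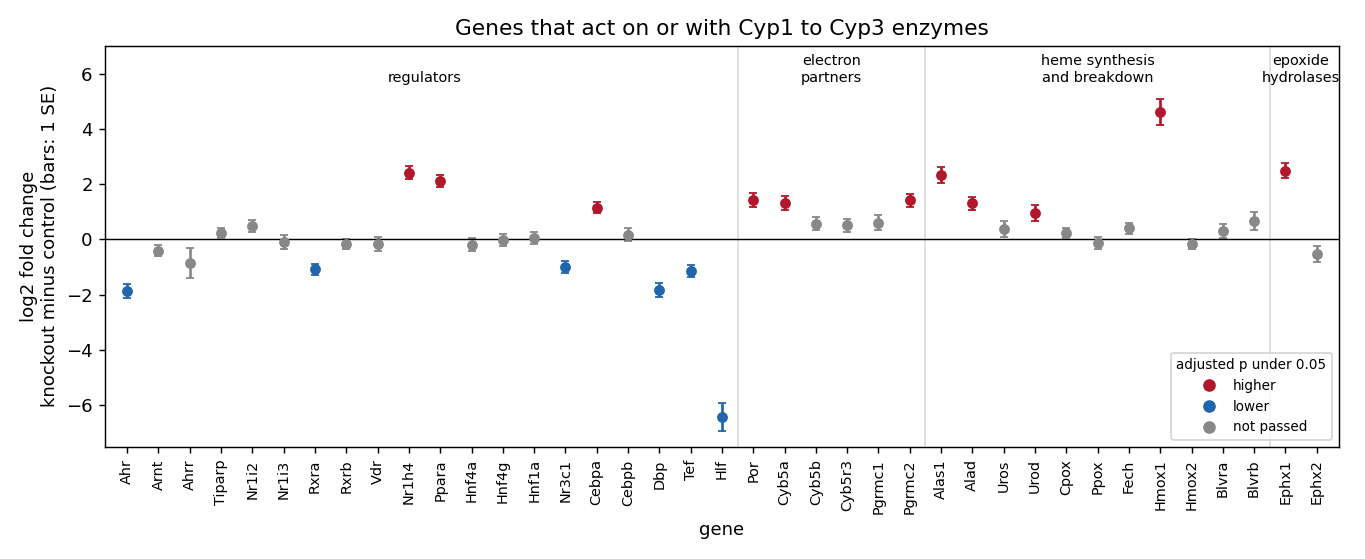
Log2 fold change (bars of 1 SE) of tested genes that act on or with the Cyp1 to Cyp3 enzymes, grouped as regulators, electron partners, heme genes and epoxide hydrolases. Regulators lie on both sides of zero, and Por (1.43), Alas1 (2.33), Hmox1 (4.60) and Ephx1 (2.49) lie above it.

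Some markers of other cells moved with the groups, and their part in these results was not tested. For comparison, 17.3% of all genes tested rose and 18.3% fell. All 5 tuft cell markers fell, from a summed 49.8 to 154 CPM in the controls to between 1.21 and 6.41 CPM in the knockouts. Of 9 enterocyte markers 2 rose (Fabp2 and Apoa4), 1 fell (Vil1) and 6 did not pass. Their sum, to which Fabp2 (a mean of 12930 in controls and 59600 CPM in knockouts) and Apoa4 (16310 and 39320) contribute most of the difference, went from between 47670 and 66660 CPM to between 87880 and 174200 CPM, highest in knockout 477. All 5 red cell genes rose, from a sum of 7.95 to 22.2 CPM in the controls to one of 35.5 to 543 CPM in the knockouts, with knockout 477 again highest. Among markers of the proximal small intestine 3 of 7 rose and 1 fell, and among distal ones 1 of 5 rose and another fell. Of 6 goblet markers 2 rose and 3 fell, of 5 Paneth markers 3 fell, and of 6 enteroendocrine markers 2 fell. The 3 tested stem cell, 6 mesenchyme and 2 endothelium markers did not pass, and 1 of 7 leukocyte markers fell. The stem cell marker Lgr5 was not tested and had 87 counts in the controls and 8 in the knockouts, with overlapping CPM. Cdh5 of endothelium, also not tested, had 30 and 5. Hepatocyte markers were near 0: Alb was at most 1.61 CPM and Fgb had no count outside knockout 477, and the 5 markers summed to between 1.05 and 1.62 CPM in the controls and between 0.931 and 3.11 CPM in the knockouts. The 4 acinar markers summed to at most 3.39 CPM.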

How the data were processed

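The authors deposited raw counts of reads per gene as whole numbers. The submitters' processing notes name FastQC 0.11.7, bcl2fastq and fastp 0.21.0, alignment software STAR 2.7.9a, Subread 1.6.2 with featureCounts, DESeq2 1.23.10 and build mm10. Which annotation, strand setting or filter was applied is not given in the sources used here. The authors also deposited variance-stabilised log2 values, which served 1 alternative. Of 55450 identifiers, 55104 matched a GENCODE M21 symbol, which also gave coordinates, exon lengths and coding sequences.

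Counts were fitted over the whole table in R 4.3.3 with edgeR 4.0.16: filterByExpr left 15028 genes, libraries were scaled with TMM (factors 1.28, 1.13 and 1.09 for the controls, 0.975, 0.871 and 0.741 for the knockouts), and the robust quasi-likelihood test compared 3 knockout with 3 control libraries. SE is the size of a log2 fold change over the square root of F. CPM per kb divides CPM by the union of a gene's exons. A floor of 3 counts was 0.0586 to 0.173 CPM and covers only counting error. Within each group every pair of libraries differed beyond sampling noise over the tested genes (chi-square divided by its degrees of freedom at least 65.9), so each counted as 1 replicate. The labels do not say whether mice shared litters, so p-values measure the spread between these mice. Promoters came from RefSeq (GRCm38.p6) and matched 43 of 49 members; Cyp2c23, Cyp2d12, Cyp2d22, Cyp2d34, Cyp2g1 and Cyp2u1 had no entry.

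Members, lists and tests were chosen with earlier results of these data known. Every tested member was named with its values and every other with its counts, with Ncor1, the receptors Ahr, Nr1i2, Nr1i3 and Vdr, Por, and up to 4 called genes of each list with the smallest adjusted p. Hepatic, acinar and other marker lists were described by their counts. A targeted gene and a gene of the heme list are not reported here, and the list's counts leave the latter out. Alternatives were other scalings and filters, DESeq2 1.42.0, limma 3.58.1 (voom, and trend on the variance-stabilised values), a test against a 1.5-fold change, the 20 most abundant genes left out, removal of the trend with length and GC content, and each library left out. Summing members with at least 95% identical coding bases was chosen after seeing the data. The scripts were tested on simulated data.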

Additional observations from a re-analysis of the deposited data

How the results depend on the processing

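No paired analysis was possible because no animal number occurs in both groups. Of the 21 members called, 17 kept the call and its direction in every alternative that gave a value, and the calls of Cyp2c38, Cyp2c65, Cyp2d22 and Cyp2j5 were lost in some, as given above. Cyp3a11 is among the 20 most abundant genes, so it has no value without them. With library size alone, 8 members fell, and of all genes 1133 rose and 4554 fell. Against a 1.5-fold change, 1221 of all genes rose and 1411 fell. Leaving out one library at a time gave 14 to 15 members that rose and 3 to 6 that fell, and over all genes 1510 to 2958 that rose and 1748 to 2982 that fell; the lowest counts over all genes came without control 482 and knockout 477. With no filter, 17 of 49 members rose and 7 fell, and with a mean of at least 1 CPM 11 of 21 rose and 5 fell. With near-identical members summed, 14 of 26 units rose and 5 fell. DESeq2 called 16 and 5, against 3020 and 2956 of all 15028 genes. Sign changes were seen in genes that did not pass. With library size alone Cyp2c67 was at -0.28 and Cyp2d26 at -0.10. With the length and GC trend removed Cyp2c67 was at -0.30, Cyp2s1 at 0.11, Nr1i3 at 0.091 and Vdr at 0.10. With one library left out, Cyp2c67 ranged from -0.23 (without knockout 477) to 0.64, Cyp3a44 from -0.61 to 0.071 (without knockout 423), Nr1i3 from -0.25 to 0.12 (without knockout 423) and Vdr from -0.37 to 0.018 (without control 483). The cause was not tested for any of these. Genes with few counts, such as Cyp2d9 with 1 count per control library, have folds that depth limits.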

Other observations

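Rows of the same families that the naming rule left out, 8 in all, also had counts. The pseudogene Cyp2c52-ps stood at 0.211, 0.236 and 0.293 CPM in the controls and 2.17, 1.596 and 2.47 CPM in the knockouts (log2 fold change 3.05, adjusted p = 0.00107, edgeR), so it rose with no overlap between groups. Cyp2c53-ps, whose annotated exons overlap those of Cyp2c29, had 3, 1 and 1 counts in the controls and 20, 31 and 32 in the knockouts (log2 fold change 4.79, adjusted p = 0.000946), while Cyp2c29 itself fell. Cyp2d41-ps had 24, 2 and 17 counts in the controls and 0, 1 and 0 in the knockouts and was not tested. Cyp3a41a, a near neighbour of the Cyp3a members, had no count in any control and 3 counts in each knockout. The remaining 4 (Cyp2ab1, Cyp2d37-ps, Cyp3a41b and Cyp3a63-ps) had at most 6 counts in any library.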
